A study of Mus musculus with 4 samples.

Results

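The 7 Ms4a genes described here, Ms4a1, Ms4a4b, Ms4a4c, Ms4a6b, Ms4a6c, Ms4a6d and Ms4a7, were followed across the leukocytes of YUMMER1.7 mouse melanomas. They are 7 of the 32285 genes in the deposited tables, and 14 further genes, 12 of them Ms4a genes and the others Tmem176a and Tmem176b, were counted as the rest of the family. Cells were assigned to 5 lineages by unique molecular identifiers (UMIs) of marker genes, none of which is an Ms4a gene. A cell was placed in the T gate with at least 1 UMI of Cd3e, in the B gate with Cd79a, in the NK gate with Ncr1, and in the mature dendritic cell (DC) gate with Ccr7 and Fscn1. The monocyte/macrophage gate required Lyz2 together with Ly6c2 or C1qb. Of 4790 cells kept in 4 treatment arms, 538 were T, 43 B, 136 NK, 148 mature DC and 2676 monocyte/macrophage cells, 1181 passed no gate, and 68 passed several gates and were set aside.

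YUMMER1.7, an immunogenic melanoma line, was grown under the skin of wild-type male C57BL/6J mice that were 7 to 8 weeks old. Mice received an isotype control antibody, anti–PD-1, anti-MIF or the anti–PD-1/anti-MIF combination, and no group was genetically modified. The short cohort had 2 doses and was taken at day 14 (1 week of treatment), and the long cohort had 4 doses and was taken at day 21 (2 weeks). Sorted CD45+ cells (80%) and CD45− cells (20%) were recombined before capture. Hashtag antibodies marked the arms, and all arms of a cohort went through a single 5′ library, so an arm is 1 sample without a replicate, the hashtags do not separate mice, and cohort, library, day and number of doses cannot be told apart. The files hold the fifth hashtag, named for anti-PD1, MIF and DDT, which no label describes, and its cells are given as values only.

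The long library held 23702910 UMIs in 2516 barcodes and the short library 31799441 in 4987. After filtering, the 4 arms kept 1671 and 3119 cells. Lists of 4 arm values below run from isotype over anti–PD-1 and anti-MIF alone to the combination. The monocyte/macrophage gate held 82 to 487 cells per arm in the long cohort, and 250 to 817 in the short, and the T gate 33 to 168 in both. Cells of the gates differed in depth. The median was 4375 UMIs in T, 2886 in B, 5702 in NK, 7983 in mature DC and 7686 in monocyte/macrophage cells, and the last of these was 10970 in the long against 6882 in the short cohort. The libraries shared 20 barcode sequences.

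The gates carried the markers of their lineages. CPM denotes UMIs of a gene per 1000000 UMIs of the gated cells. The summed CPM of 9 T markers reached 4376 in the T gate of the long cohort and 4217 in the short, led by Cd3g in the long and Cd3d in the short cohort, against 4.64 and 7.58 in the monocyte/macrophage gate. The NK list, led by the granzyme Gzma, summed to 8983 and 8197 in the NK gate. The mature DC list, led by Tbc1d4, summed to 5821 and 5355 in its gate. Monocyte markers made 2585 CPM in the monocyte/macrophage gate of the long cohort and 5539 in the short, whereas macrophage markers made 7384 and 2367. The B gate carried 9049 and 8895 CPM of B markers, but in the short cohort it also held 612 CPM of plasmacytoid DC and 842 of monocyte markers (802 of it Plac8). T and NK gates held markers of each other, with 719 and 539 CPM of the NK list (led by Prf1) in the T gate and 810.1 and 661 of the T list (led by Lck and Trbc1) in the NK gate, whose part in the comparison of these gates was not tested. Melanoma markers were at 0 in the monocyte/macrophage gate of the long cohort and at 0.147 CPM in the short.

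MS4A proteins cross the membrane several times and sit at the surface or in endosomal membranes of blood cells, where they associate with receptors and tune their signalling. The best known member, MS4A1, is CD20, the target of B cell-depleting antibodies. MS4A2 is the beta chain of the high-affinity IgE receptor of mast cells and basophils. Ms4a4b is known as a T cell member that associates with the costimulatory receptor GITR, and Ms4a7 is a known macrophage gene.

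In GRCm38 the 7 members and 12 further Ms4a genes lie in a cluster of 679 kb on chromosome 19 (chr19:10962293-11640851), and the members span 355 kb of it. Ms4a1 (ENSMUSG00000024673) occupies chr19:11249675-11266241 on the minus strand and Ms4a7 (ENSMUSG00000024672) chr19:11321039-11336146, also minus. Ms4a4c (ENSMUSG00000024675) at chr19:11404770-11427246 and Ms4a4b (ENSMUSG00000056290) at chr19:11443553-11467055 follow on the plus strand, next to each other. Ms4a6c (ENSMUSG00000079419) at chr19:11469366-11482192 and Ms4a6b (ENSMUSG00000024677) at chr19:11516512-11531256 are also on the plus strand, and Ms4a6d (ENSMUSG00000024679) is on the minus strand at chr19:11586604-11604849. Some genes of this cluster are partial copies of each other. Annotated transcripts of Ms4a4b and Ms4a4c share an identical run of 127 bases, those of Ms4a6b and Ms4a6c 96 bases, of Ms4a6b and Ms4a6d 81 and of Ms4a6c and Ms4a6d 44, so the assignment of reads between these genes is uncertain.

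Ms4a4b and Ms4a4c had the most similar upstream windows over their aligned length among the genes compared but stood highest in different lineages, so their sequences before the RefSeq start are printed here. They come from the RefSeq promoter table (GRCm38.p6), which held 5 of the 7 members. The RefSeq start of Ms4a4c lies inside the gene span given above, which begins further upstream, and the Ms4a4b print ends where the first annotated exon begins. Capitals mark bases that lie in stretches of at least 10 bases occurring exactly in the 250-base window of the other gene. That window begins before the bases printed. Adjoining stretches run together, as in the last capital block of Ms4a4b, which does not occur whole in Ms4a4c.
Ms4a4b, chr19:11443438-11443552, plus strand: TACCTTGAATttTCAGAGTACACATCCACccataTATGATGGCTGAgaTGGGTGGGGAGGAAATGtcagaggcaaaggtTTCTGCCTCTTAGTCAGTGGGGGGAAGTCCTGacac
Ms4a4c, chr19:11407541-11407660, plus strand: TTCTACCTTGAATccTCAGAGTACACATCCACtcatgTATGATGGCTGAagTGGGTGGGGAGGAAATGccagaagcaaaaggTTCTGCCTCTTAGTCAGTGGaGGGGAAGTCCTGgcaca
Over the last 120 bases the alignment matched at 105 of 124 columns (84.7%), and over 250 bases at 182 of 259 (70.3%). Ms4a6b and Ms4a6c matched at 46.8% over the last 120 bases but shared an identical run of 48 bases, longer than the 20 bases of Ms4a4b and Ms4a4c. The Ms4a6b window also lies inside its gene span. Of its last 120 bases, 14 come before the first exon annotated there, so this pair does not compare upstream sequence alone. The other 19 pairs of windows, with Ms4a4a and 2 windows of Ms4a7 included, matched at 41.4 to 50.8%. The 250-base windows were searched on both strands for GAGGAAG (a PU.1-type motif), TGTGGT (RUNX-type), the interferon response element and ATTTGCAT (octamer), whose letters were matched exactly. Of all 32851 windows, 10.6% held GAGGAAG, 14% TGTGGT, 2.98% the interferon response element and 1.60% ATTTGCAT. Among the Ms4a windows Ms4a4c alone had matches, to TGTGGT on the reverse strand 211 to 206 bases and to ATTTGCAT 170 to 163 bases before the start. The Ms4a4b window held no match.

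The members divided the leukocytes among themselves. Ms4a1 was a B transcript, Ms4a4b a T and NK transcript, Ms4a6b was shared by T and monocyte/macrophage cells, and Ms4a4c, Ms4a6c, Ms4a6d and Ms4a7 were highest in the monocyte/macrophage gate. Of the UMIs of each gene in the kept cells, monocyte/macrophage cells held 84.7% for Ms4a4c (of 15895), 79.6% for Ms4a6b (of 10640), 88.5% for Ms4a6c (of 21447), 89.3% for Ms4a6d (of 10870) and 94.1% for Ms4a7 (of 3964). Ms4a4b (4938 UMIs) was distributed otherwise, with 58.7% in T and 17.5% in NK cells. A total of UMIs follows the number of cells in a gate, so levels are given below as CPM, which are compared within a gene only. In sums of cells, fewer expressing cells and less RNA per cell cannot be told apart.

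**Figure D1:**
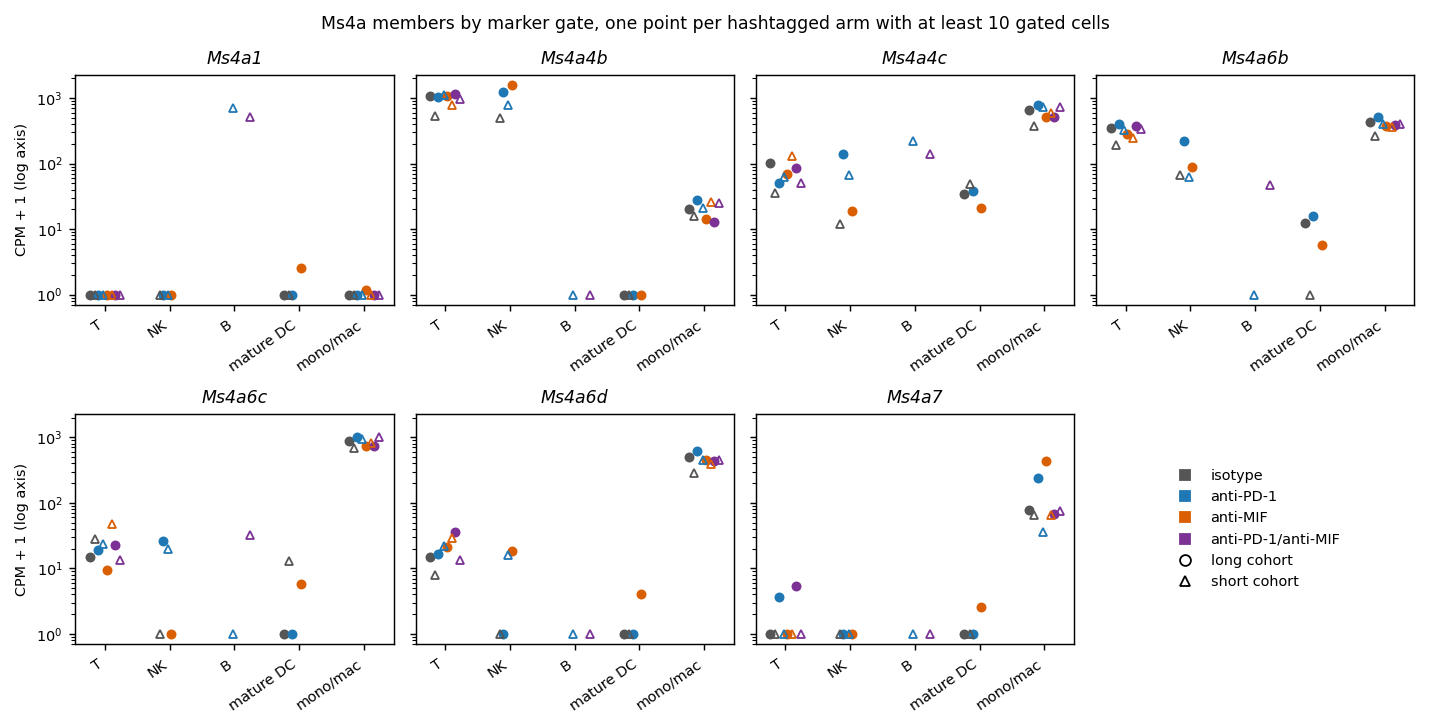
CPM plus 1 on a log axis for each member by gate, with 1 point per hashtagged arm holding at least 10 gated cells (colour: arm, filled circles: long cohort, open triangles: short cohort). Ms4a4b sits high in T and NK, Ms4a6b in T and mono/mac, and Ms4a4c, Ms4a6c, Ms4a6d and Ms4a7 in mono/mac, and all 7 are low in mature DC.

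Ms4a1, encoding CD20, was detected in 29 of 43 B cells (67.4%) and gave 588 CPM there (77 UMIs), or 341 CPM with cells of several gates kept. Of its 86 UMIs in kept cells, 89.5% lay in the B gate. It was at 0 UMIs in T and in NK cells, at 0.773 CPM in mature DC and at 0.0437 CPM in monocyte/macrophage cells. B cells were few and unevenly spread. The arms held 24 UMIs in 8 cells (long anti–PD-1, 912 CPM), 2 UMIs in 1 cell (long anti-MIF), 2 UMIs in 2 cells (short isotype, 168 CPM), 16 UMIs in 10 cells (short anti–PD-1, 696 CPM) and 33 UMIs in 22 cells (short anti–PD-1/anti-MIF, 509 CPM). The B gate reached 10 cells in 2 arms, below the minimum of 3 sums set for a test.

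Ms4a4b was a T and NK transcript. In T cells it stood at 1081, 1035, 1074 and 1134 CPM (long) and at 537, 1125, 792 and 974 (short). The isotype arm of the short cohort was thus lowest, and the arms of the long cohort lay within 100 CPM of each other. In monocyte/macrophage cells the level ran from 11.96 to 26.4 CPM over 8 arms with a median of 19.8, below T in 8 of 8 arms without overlap. Pooled over arms it was 1032 CPM in T and 18.0 in monocyte/macrophage cells, 57.3-fold lower (95% counting interval 51.7 to 63.7), 71.2-fold in the long and 48.9-fold in the short cohort. In the edgeR fit over 24 sums of gate and arm, in which the arm was a block, it fell by 5.46 ± 0.18 (log2, SE) from T to monocyte/macrophage cells, with an adjusted p of 2.53e-21.

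Low Ms4a4b remained in monocyte/macrophage cells. After thinning every cell to 2000 UMIs, 4.35% of them had a UMI of Ms4a4b (long) and 4.02% (short), or 14.2 and 11.3% unthinned, against 74.2 and 74.3% of T cells. Mature DC had 0 of 100 thinned cells in the long cohort, which allows a share of up to 3% by the limit of 3 counts and 3.62% by the Clopper-Pearson interval, and 0 of 43 in the short, which allows 6.98 and 8.22%. These limits hold for cells with a UMI at this depth and not for cells that express the gene. Summed T markers in the monocyte/macrophage gate, as given above, were below 8 CPM, and summed NK markers were 2.37 and 8.31 CPM. Ms4a4c, from which Ms4a4b reads are not separated with certainty, was at 588.9 CPM in this gate. The parts of free RNA and of Ms4a4c reads in the low Ms4a4b level were not tested.

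NK cells also carried Ms4a4b, unevenly across their sums. The 4 NK sums with at least 10 cells gave 1222 CPM (long anti–PD-1, 10 cells), 1576 (long anti-MIF, 11 cells), 487 (short isotype, 14 cells) and 767 (short anti–PD-1, 73 cells). NK exceeded T in both arms of the long cohort and lay below T in both arms of the short. Pooled, NK over T was 1.43 (1.28 to 1.61) in the long and 0.767 (0.690 to 0.852) in the short cohort. The fitted difference over both cohorts was −0.04 ± 0.20 (95% interval −0.43 to 0.36, edgeR adjusted p = 0.97). The difference between the cohorts was not tested.

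B cells had 0 UMIs of Ms4a4b and mature DC also had 0. Against a floor of 3 UMIs over the gate this puts B at least 45.1-fold lower and mature DC at least 445-fold lower than T. Mature DC were also at least 7.77-fold lower than monocyte/macrophage cells. The median depth of these gates was 8933 against 10970 UMIs per cell in the long cohort, and 7410 against 6882 in the short.

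**Figure D2:**
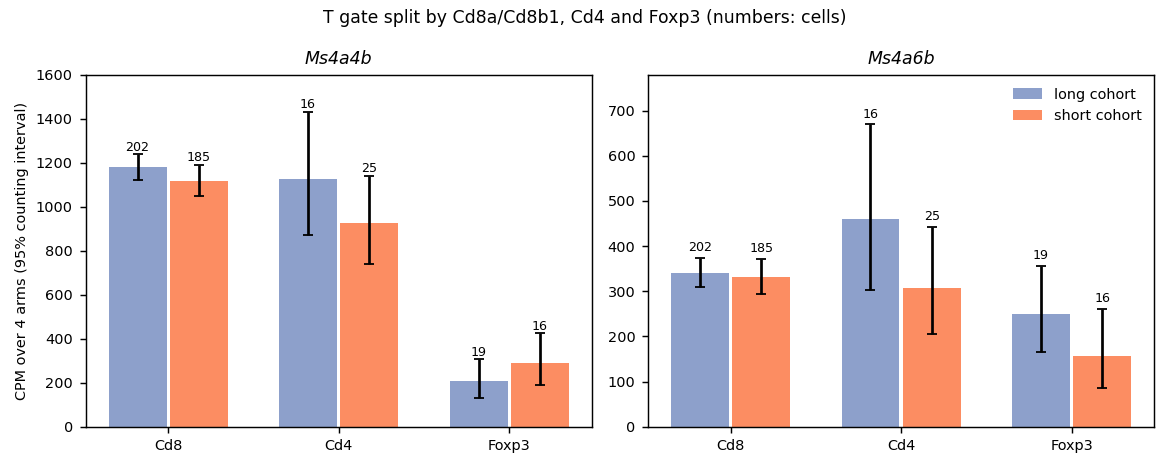
CPM of Ms4a4b and Ms4a6b, pooled over 4 arms, in T cells with Cd8a or Cd8b1, with Cd4 and no Foxp3, and with Foxp3 (bars: cohorts, error bars: 95% counting interval, numbers: cells). Ms4a4b was lower in the Foxp3 class than in the Cd8 class in both cohorts, and Ms4a6b differed less.

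Within the T gate, 387 cells had Cd8a or Cd8b1 and neither Cd4 nor Foxp3, 41 had Cd4 alone and 35 had Foxp3, the factor of regulatory T cells. Ms4a4b was at 1155 CPM in the Cd8 class, 1002 in the Cd4 class and 242 in the Foxp3 class. Cd4 over Cd8 was 0.867 (0.732 to 1.02), which includes 1. The Foxp3 class was 4.77-fold below the Cd8 class (ratio 0.210, 0.155 to 0.278), 5.73-fold in the long and 3.85-fold in the short cohort. The thinned share of cells with a UMI was 79.0 and 80.4% in Cd8 cells against 18.8 and 25% in Foxp3 cells. Tnfrsf18, which encodes GITR, went the other way, with 1032 CPM in the Foxp3 class (898 to 1181) against 259 in the Cd8 class (238 to 281). The Foxp3 class reached 10 cells in a single arm and the Cd4 class in none, so the T classes have counting intervals and no test.

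Ms4a6b was the member that T and monocyte/macrophage cells shared. T cells had 348, 397, 284 and 369 CPM (long) and 190.3, 328, 248 and 333 (short). Monocyte/macrophage cells had 433, 503, 367 and 381 CPM (long) and 261, 401, 361 and 402 (short). The ranges overlapped, but monocyte/macrophage cells were higher in 8 of 8 arms, and the fitted difference was 0.51 ± 0.12 (1.42-fold, edgeR adjusted p = 0.0004), under the fold required for a call. NK cells differed from both, with 216 and 88.5 CPM in the long sums and 64.9 and 61.4 in the short. Ms4a6b was lower in NK than in T by 1.79 ± 0.23 log2 units (3.47-fold, edgeR adjusted p = 6.78e-07), in 4 of 4 arms. After thinning, 48.4 and 43.7% of T cells, 48.6 and 46.2% of monocyte/macrophage cells and 18.8 and 8.25% of NK cells had a UMI. Within T cells it was at 337 CPM in the Cd8, 367 in the Cd4 and 208 in the Foxp3 class. Gm19261 is annotated antisense to Ms4a6b and overlaps it.

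Of the 6 members tested between NK and T, Ms4a6b was the only call, and it was lower. Ms4a7 is among the 6 but, at 2 UMIs in T and 0 in NK, passed the filter on low counts through the monocyte/macrophage sums and could hardly be called. Ms4a6c and Ms4a6d were also low in both gates, at 54 and 55 UMIs in T and 11 and 8 in NK. The count of calls and the median of the members therefore rest partly on few UMIs. Over all 7338 genes of this fit 2.73% were called higher in NK and 4.16% lower. Leaving out Ms4a7, the median of the members was −0.46, and that of all genes tested −0.12.

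The 4 myeloid members rose from T to monocyte/macrophage cells. Ms4a6c was at 694.6 to 1012 CPM over the 8 arms (median 842) against 8.29 to 46.9 in T cells, a fitted rise of 5.64 ± 0.21 log2 units (edgeR adjusted p = 1.40e-22). Ms4a6d was at 283 to 614 CPM (median 446) against 6.80 to 34.4 in T, a rise of 4.74 ± 0.19 (edgeR adjusted p = 1.48e-21). Ms4a4c was at 376 to 784 CPM against 33.98 to 131 in T, a rise of 3.27 ± 0.20 (edgeR adjusted p = 1.90e-14). None of the 3 overlapped T in any arm.

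Ms4a7 was at 163 CPM in monocyte/macrophage cells with 2 UMIs in all T cells (0.712 CPM), 0 in NK and 0 in B. The ratio to T was 229 (63.4 to 1893). Ms4a7 passed the filter on low counts through the monocyte/macrophage sums, so its fitted rise of 7.76 ± 0.38 rests on those 2 UMIs and is a description.

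Thus 4 of 6 members tested were called higher in monocyte/macrophage than in T cells and 1, Ms4a4b, lower. Ms4a7, with 2 UMIs in T, passed the filter on low counts through the monocyte/macrophage sums. This count and the median of the members are therefore descriptions. Of the 7338 genes, 19.1% were called higher and 17.5% lower. The median of the members was 4.01, and that of all genes −0.04. In B cells, Ms4a4c stood at 160.3 CPM (21 UMIs), 2.24 times the T level (1.36 to 3.52), and Ms4a6d at 0 UMIs. With cells of several gates kept, the Ms4a4c level was 359 CPM, and the monocyte markers of the short B gate are given above. Their part in this level was not tested.

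Mature DC, which carry Ccr7 on the way to lymph nodes, stood apart from the cells of the monocyte/macrophage gate. The 4 sums with at least 10 cells were the long isotype (11 cells), anti–PD-1 (14) and anti-MIF (68) arms and the short isotype arm (23). Ms4a6c was at 0, 0, 4.68 and 12.1 CPM in them, Ms4a6b at 11.2, 14.8, 4.68 and 0, and Ms4a4c at 33.5, 37.1, 20.3 and 48.3. Each lay below every monocyte/macrophage arm. The fitted falls from monocyte/macrophage cells were 7.22 ± 0.39 log2 units for Ms4a6c, 5.97 ± 0.33 for Ms4a6b and 4.16 ± 0.33 for Ms4a4c. All mature DC together held 8, 8 and 41 UMIs of these genes, which passed the filter on low counts through other gates. These fitted falls are therefore descriptions. Ms4a6d had 3 UMIs in 148 cells, 183-fold lower (62.7 to 888), and Ms4a7 had 1 UMI, 211-fold lower (37.9 to 8342).

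The 6 members tested were called lower in mature DC, where 23.5% of all genes were called lower and 14.4% higher. Members pass the filter on low counts through the gates in which they are high, Ms4a4b through T and NK cells, so this count is a description. The median of the members was −7.35, or −6.60 with Ms4a4b at its bound, and that of all genes −0.20. The related 4-transmembrane genes Tmem176a and Tmem176b went the other way. Tmem176a, an endosomal membrane protein gene, was at 402, 600.5, 398 and 465 CPM in the same 4 sums against 19.3 to 43.1 in the monocyte/macrophage arms, a rise of 3.66 ± 0.22 (edgeR adjusted p = 3.53e-16). Tmem176b, its partner, was at 626, 897, 559 and 483 CPM against 48.0 to 101, a rise of 3.11 ± 0.24 (edgeR adjusted p = 8.41e-12).

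Monocyte/macrophage cells were then divided by their second gate gene. Ly6c2 without C1qb (1641 cells) marks cells near blood monocytes, C1qb without Ly6c2 (467 cells) marks mature macrophages, and 568 cells had both. The Ly6c2 class held 5209 CPM of monocyte markers (long) and 6716 (short), and 1743 and 1261 CPM of macrophage markers. The C1qb class held 408 and 943 CPM of monocyte and 13190 and 6753 of macrophage markers. Neutrophil markers were also present in the Ly6c2 class, at 3083 CPM in the long (1574 of it S100a8) and 557 in the short cohort, against 24.2 in the C1qb class of either cohort. Their part in the differences between the classes was not tested.

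**Figure D3:**
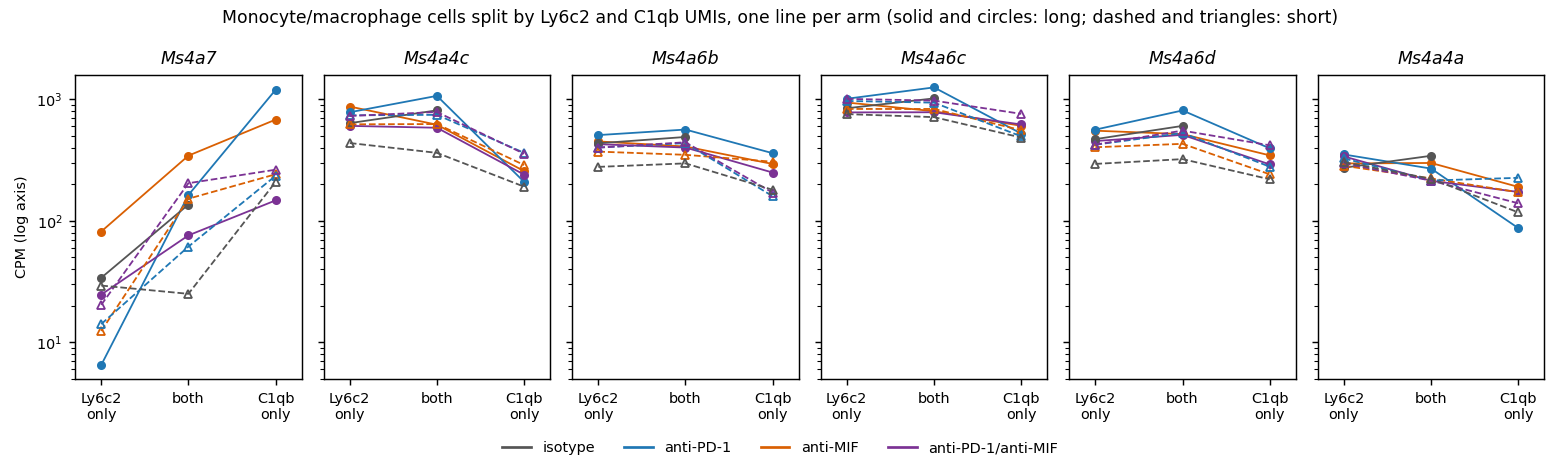
CPM (log axis) of 5 members and Ms4a4a in the Ly6c2 class, in cells with both genes and in the C1qb class, with 1 line per arm (solid: long, dashed: short cohort). Ms4a7 climbs towards the C1qb class in each of the 7 arms with both end points, whereas Ms4a4c descends.

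Ms4a7 rose with C1qb. The C1qb class had 1197, 681 and 147 CPM in the anti–PD-1, anti-MIF and combination arms of the long cohort (the isotype arm held 7 cells, at 485 CPM) and 209, 235, 242 and 264 in the short cohort. The Ly6c2 class had 33.99, 6.51, 81.7 and 24.7 CPM (long) and 29.3, 14.1, 12.4 and 20.4 (short). The classes did not overlap, and the C1qb class was higher in 7 of 7 arms. Pooled it was 533 against 25.7 CPM, a ratio of 20.8 (18.5 to 23.4), which was 13.95 (11.8 to 16.6) within the long and 12.05 (9.93 to 14.7) within the short cohort. The fit over 15 sums gave a rise of 3.78 ± 0.49 log2 units (13.8-fold, edgeR adjusted p = 0.00119). In the long cohort alone, with fewer sums, the rise was 3.93 and was not called. Cells with both genes lay between at 179.5 CPM.

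Ms4a4c and Ms4a4b went down. Ms4a4c had 209, 257 and 240.1 CPM (long, from anti–PD-1 on) and 191, 363, 288 and 357 (short) in the C1qb class. The Ly6c2 class had 637, 783, 872 and 605 (long) and 437, 739, 623 and 729.5 (short). It was lower in the C1qb class in 7 of 7 arms without overlap, with a fitted fall of 1.31 ± 0.12 (2.48-fold, edgeR adjusted p = 6.45e-08). Ms4a4b, low in both classes, was at 0 to 17.7 CPM in the C1qb sums against 13.1 to 32.6 in the Ly6c2 sums, and fell by 1.60 ± 0.32 (edgeR adjusted p = 0.000639). The C1qb class held 29 UMIs of Ms4a4b, 9 of them in the short cohort, against 279 in the Ly6c2 class, so this call rests on few UMIs. In the short cohort alone the Ms4a4b difference was −1.39 and was not called.

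Ms4a6b, Ms4a6c and Ms4a6d fell by 0.68 ± 0.13, 0.61 ± 0.09 and 0.50 ± 0.11 log2 units (edgeR adjusted p = 0.000332, 4.38e-05 and 0.00118). Each was lower in 7 of 7 arms, but under the fold required for a call. In all, 1 of 6 members was called higher and 2 lower. Of 6373 genes, 4% were called higher and 5.23% lower. The median of the members was −0.64, and that of all genes −0.01.

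**Figure D4:**
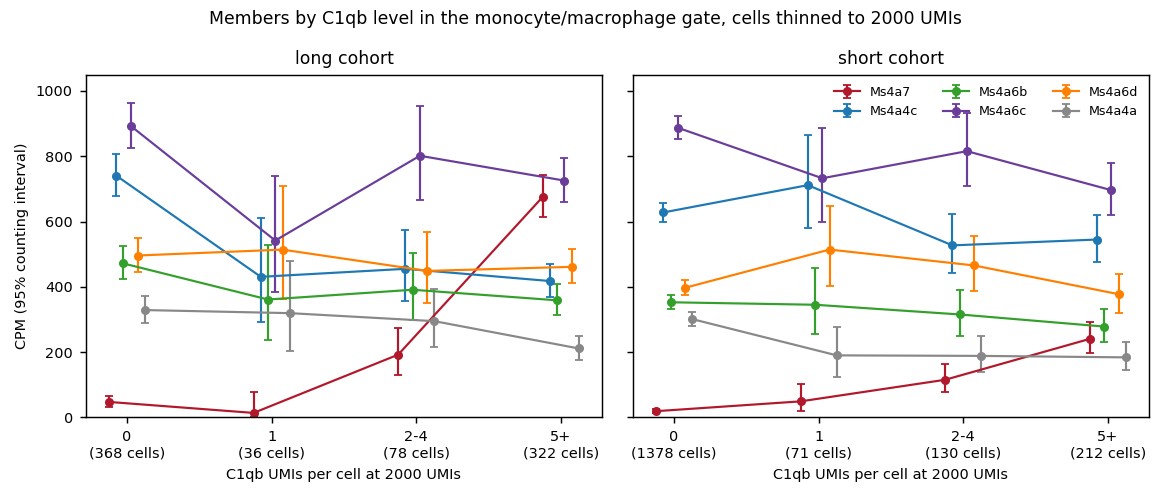
CPM of 5 members and Ms4a4a in monocyte/macrophage cells of each cohort by their C1qb UMIs, after thinning to 2000 UMIs per cell (error bars: 95% counting interval, cells in brackets). Ms4a7 rises to 676 CPM in the long and 241 CPM in the short cohort at 5 or more C1qb UMIs.

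Ms4a7 was then followed over the number of C1qb UMIs in a cell. With 0, 1, 2 to 4 and at least 5 C1qb UMIs per thinned cell, Ms4a7 was at 47.6, 13.9, 192 and 676 CPM (long) and 19.2, 49.3, 115 and 241 (short). The 13.9 CPM rest on 1 UMI in 36 cells. Ms4a4c fell from 741 CPM without C1qb to 418 with at least 5 UMIs in the long cohort, and in the short from 628 to 545, where the intervals (598 to 658 and 477 to 620) overlapped. The fall was not steady, since Ms4a4c was at 711 CPM with 1 C1qb UMI in the short cohort. Ms4a6d was at 496, 514, 449 and 461 CPM over the 4 levels in the long cohort, and in the short at 397, 514, 465 and 377. At the highest C1qb level Ms4a7 was 675.5 CPM in the long against 240.6 in the short cohort, with intervals of 613.5 to 742 and 196 to 292. These values pool arms of unequal size. In the C1qb class, where 214 of 276 long cells came from the anti-MIF arm, the long combination arm (147 CPM) lay below all 4 short arms (209 to 264).

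**Figure D5:**
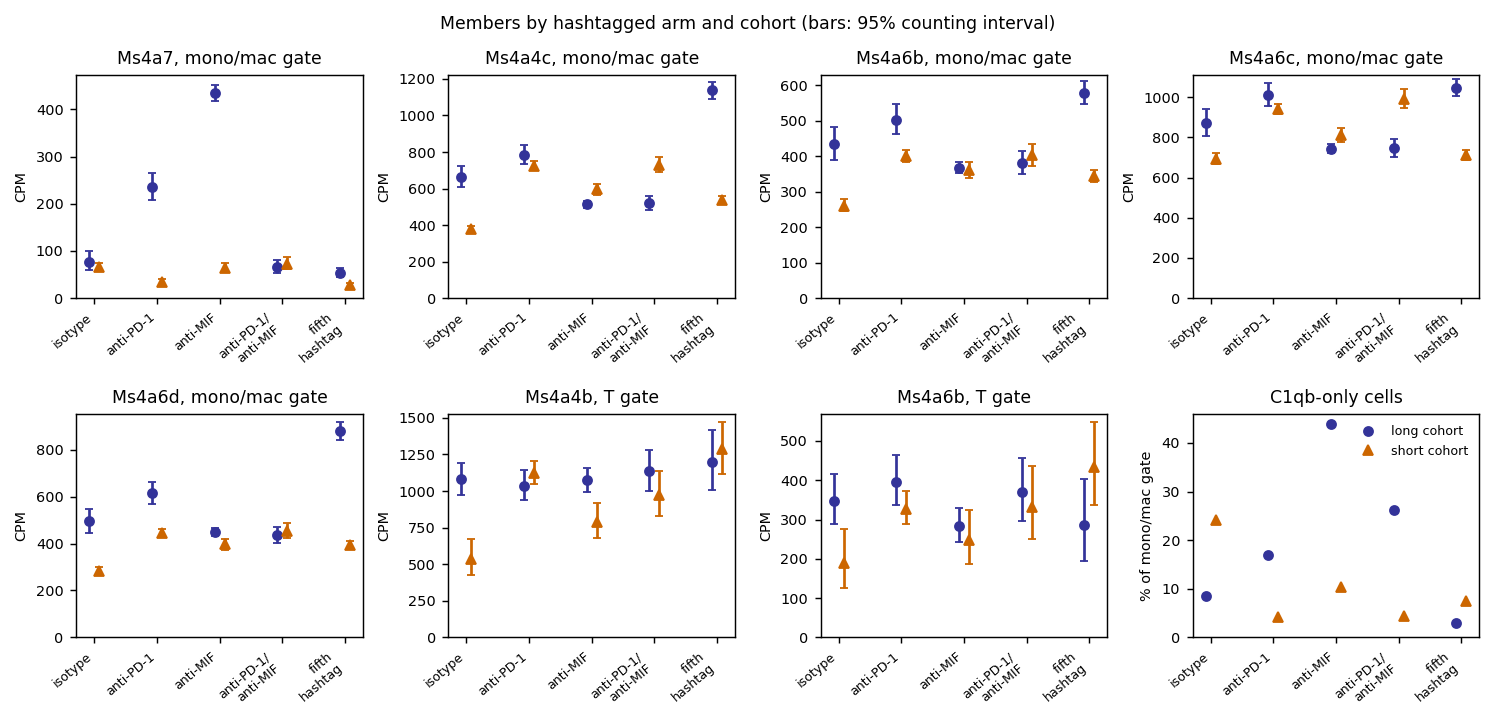
CPM of members in the monocyte/macrophage or T gate by hashtagged arm and cohort, and the share of C1qb-only cells in the monocyte/macrophage gate (circles: long, triangles: short cohort, error bars on CPM: 95% counting interval). Ms4a7 and the share of C1qb-only cells are both highest in the long anti-MIF arm, at 435 CPM and 43.9%.

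Among the members in the monocyte/macrophage gate, Ms4a7 had the widest range over arms as a fold. In the whole monocyte/macrophage gate it was at 77.4, 235, 435 and 66.8 CPM (long) and 65.2, 34.8, 64.5 and 73.2 (short). The long anti-MIF arm was 5.63 times the isotype arm (4.36 to 7.40), while the combination was 0.284 times anti–PD-1 (0.223 to 0.361). The short cohort gave 0.989 (0.806 to 1.21) and 2.10 (1.67 to 2.65), so the direction with anti-MIF differed between pairs. C1qb-only cells made 8.54, 16.9, 43.9 and 26.2% of the gate in the long cohort (7 of 82, 21 of 124, 214 of 487 and 34 of 130 cells) and, in the short, 24.2, 4.28, 10.4 and 4.40%. Within the C1qb class the anti-MIF to isotype ratio in the long cohort was 1.40 (0.862 to 2.46), with 7 isotype cells, and the combination was 0.123 times anti–PD-1 (0.0874 to 0.170). The part of the class shares in the gate level was not tested.

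The other monocyte members were lowest in the short isotype arm. Ms4a4c was at 664, 784, 514 and 518 CPM (long) and 376, 726, 596 and 729 (short). With anti–PD-1 it was 1.93 times isotype in the short cohort (1.81 to 2.05) and 1.18 times in the long (1.06 to 1.32). Within the Ly6c2 class these ratios were 1.69 (1.58 to 1.82) and 1.23 (1.07 to 1.41). With anti-MIF in the long cohort, Ms4a4c was 0.774 times isotype in the gate (0.704 to 0.851) but 1.37 times within the Ly6c2 class (1.22 to 1.55). Ms4a6d was at 495, 614, 448 and 435 CPM (long) and 283, 444, 396 and 454 (short), and Ms4a6c at 874, 1012, 744 and 746 and at 695, 943, 811 and 992. These intervals cover counting error in the 2 arms and not the spread between mice.

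The tests over arms made no call for the treatments. Each used 8 sums, with anti–PD-1, anti-MIF and cohort as additive terms, so that each arm stands in as a replicate for the others and the p-values measure only the spread between these sums. For anti-MIF 0 of 6 members were called in monocyte/macrophage cells and 0 of 3 in T cells. The share called among all genes was 0% in both (of 9569 and 5238 tested). At an unadjusted p under 0.05, edgeR had 665 and 205 genes, and DESeq2 called 14 and 1. For anti–PD-1 the member counts were again 0 of 6 and 0 of 3, and 0% of all genes were called in both gates (456 and 188 genes at an unadjusted p under 0.05, and 1 and 0 by DESeq2).

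No member estimate passed the threshold. Ms4a7 with anti-MIF was 0.41 ± 0.67 log2 units (edgeR adjusted p = 0.94), and Ms4a4c with anti–PD-1 was 0.38 ± 0.18 (0.94). In T cells, Ms4a4b with anti–PD-1 was 0.29 ± 0.16 and Ms4a6b 0.38 ± 0.17 (edgeR adjusted p = 0.9998 for both). In simulated sums the anti-MIF fit recovered 71.1% of changes of 1 log2 unit in monocyte/macrophage cells and 46.9% in T cells, with 9 and 5 false calls among 9353 and 4875 genes. Between the cohorts, 8.09% of genes were called in monocyte/macrophage and 8.84% in T cells, but 0 of 6 and 0 of 3 members. Leaving out single arms gave 37 to 1212 genes in monocyte/macrophage (774 in full) and 215 to 425 in T cells (463 in full). It gave 0 members in either gate. Ms4a7 was higher in the long cohort by 1.76 ± 0.67 (edgeR adjusted p = 0.17). For the interaction of anti-MIF with cohort 0.125% of genes in monocyte/macrophage and 0.0764% in T cells were called, and no member. The 6 member estimates of this interaction in monocyte/macrophage cells were all below 0, from −1.26 to −0.08. The largest was that of Ms4a4b (−1.26 ± 0.37, edgeR adjusted p = 0.27), whose CPM in that gate were 19.3, 26.4, 13.1 and 11.96 (long) and 14.7, 20.2, 24.6 and 23.6 (short).

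The rest of the family added Ms4a4a, highest in monocyte/macrophage cells, with 6969 UMIs. It was at 249.7 to 294 CPM over the 8 monocyte/macrophage arms, 45.2 CPM in T, 13.2 in NK and 1.55 in mature DC. It rose by 2.83 ± 0.21 log2 units from T to monocyte/macrophage cells (edgeR adjusted p = 7.48e-13). Its few T transcripts lay in the Cd8 class (120 UMIs, 55.1 CPM), with 0 UMIs in 41 Cd4 cells and 1 in 35 Foxp3 cells. Unlike Ms4a7, it was lower in the C1qb class, by 0.95 ± 0.15 (edgeR adjusted p = 4.12e-05), under the fold required. Ms4a8a (618 UMIs) had 540 UMIs in monocyte/macrophage cells and 1 in T cells, a ratio of 66.3 (11.9 to 2625). It passed the filter on low counts through the monocyte/macrophage sums, so its fitted rise of 5.83 ± 0.57 rests on that 1 UMI. It was lower in the C1qb than the Ly6c2 class by 1.48 ± 0.31 (edgeR adjusted p = 0.000981). Ms4a14 (86 UMIs) was at 8.81 CPM in the C1qb and 0.635 in the Ly6c2 class. Ms4a3, a gene of early granulocyte and monocyte progenitors, had 22 UMIs, all in monocyte/macrophage cells, 19 of them from 1 cell of the long combination arm. Ms4a2 had 6 UMIs, all in ungated cells. Ms4a5, Ms4a13 and Ms4a18 had 0. All 4 tested genes of this list, Tmem176a and Tmem176b included, were called higher in monocyte/macrophage than T cells. Between NK and T 0 of 4 differed, and 2 of 4 were called lower and 2 higher in mature DC. Ms4a8a (0 UMIs in mature DC) and Ms4a4a (2 UMIs there) passed the filter on low counts through monocyte/macrophage cells. These counts are therefore descriptions. The shares over all genes, given above, were 19.1% higher against T, 2.73 and 4.16% between NK and T, and 23.5% lower and 14.4% higher in mature DC.

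Receptor genes whose products act with MS4A proteins were counted as partners, and 5 of the 7 listed in the files were tested. Fcer1g (the shared Fc receptor gamma chain), Trem2, Cd40 and Cd81 were called higher and Tnfrsf18 lower in monocyte/macrophage than in T cells. In NK cells, Fcer1g was higher than in T by 4.34 ± 0.29 and Tnfrsf18 lower by 1.69 ± 0.28 (edgeR adjusted p = 1.80e-08 and 3.69e-05), and Cd81, with 0 UMIs in NK cells, was the second lower call. In mature DC, Tnfrsf18 was higher than in monocyte/macrophage cells by 4.78 ± 0.29, Cd40 by 1.89 ± 0.21 and Cd81 by 1.18 ± 0.24, and Fcer1g and Trem2 were lower. Trem2, with 3 UMIs in T cells and 1 in mature DC, passed the filter on low counts through monocyte/macrophage cells. Its calls against T and in mature DC are therefore descriptions. Cd81, at 0 UMIs in NK cells, passed that filter through other gates, so its call in NK against T cells is also a description. In the C1qb class, Cd81, a tetraspanin, rose by 3.90 ± 0.34 (edgeR adjusted p = 3.25e-05) and Trem2 by 2.13 ± 0.17 (1.05e-08). These were 2 of 4 partners tested there, against 4% of all genes called higher. In the other fits 19.1 and 17.5% of all genes were called higher and lower in monocyte/macrophage against T cells, 2.73 and 4.16% in NK, and 14.4 and 23.5% in mature DC.

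Of 26 genes within 200 kb of the cluster that the files hold, 11 were tested between the lineages. In monocyte/macrophage against T cells, 3 were called higher and 5 lower, with a median of −0.17 against −0.04 for all genes. Cd6, a T cell adhesion receptor gene, lay at 168 CPM in T and 0.394 in monocyte/macrophage cells, and Slc15a3, a lysosomal peptide transporter gene, at 12.8 and 185. AW112010 was at 2673 CPM in T, 4482 in NK, 1577 in mature DC and 714 in monocyte/macrophage cells. BE692007 overlaps Ms4a6c on the opposite strand and had the reverse pattern, with 85.1 CPM in T and 18.7 in monocyte/macrophage cells. Between NK and T, 0 neighbours were called higher and 4 lower, in mature DC 1 higher and 3 lower, and in the C1qb class 1 of 8, AW112010, higher. Of all genes, 19.1 and 17.5% were called higher and lower against T, 2.73 and 4.16% in NK, 14.4 and 23.5% in mature DC and 4 and 5.23% in the C1qb class.

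The genes most like each member were ranked by Pearson r of log2(CPM + 10) over 26 sums of gate and arm, which share libraries and gates, among 6051 genes. Ms4a4b was closest to Il18rap (the accessory chain of the IL-18 receptor, r = 0.989), Nkg7 (a cytotoxic granule gene, 0.980) and Mllt3 (0.980). Ms4a6b was closest to the leukocyte integrin Itgb2 (0.931), Dpysl2 (0.914) and Slfn8 (0.902). Ms4a4c was closest to Slfn2 (0.918), Tgfbi (0.914) and the interferon-induced gene Oas2 (0.909). Ms4a6c was closest to the chemokine receptor Ccr1 (0.973), Slc7a8 (0.971) and Klra2 (0.971). Ms4a6d was closest to the C-type lectins Clec4a3 (0.966), Clec4n (0.965) and Clec4a1 (0.965), and Ms4a7 to the chemokine Ccl7 (0.975), the complement gene C1qc (0.975) and the integrin Itga9 (0.974). Ms4a1 had too few UMIs to be ranked. Among the members, over the 8 monocyte/macrophage sums alone, r was 0.986 between Ms4a6b and Ms4a6d and 0.953 between Ms4a4c and Ms4a6c, but −0.02 between Ms4a7 and Ms4a4c. These correlations are descriptions and carry no test.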

How the data were processed

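The authors counted UMIs with Cell Ranger 7.1.0 on mm10 and deposited filtered matrices of raw counts per gene and per hashtag and barcode, 2 libraries of each kind. The annotation release is not given in the sources used here, and gene positions come from GENCODE on GRCm38, joined by identifier. Barcodes were assigned with HTODemux (Seurat 5.3.0, R 4.3.3, quantile 0.99), which removed 425 and 626 doublets and 24 and 176 negatives. Doublets within an arm were treated only by setting aside cells that passed several gates. Cells had 200 to 5000 genes and at most 5% mitochondrial UMIs, leaving 1671 and 3119 cells in 4 arms, and the study's methods state 1671. The fifth hashtag held 322 and 993 further cells.

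UMIs were summed per arm and class (at least 10 cells) and tested over all genes with edgeR 4.0.16 (glmQLFit, glmQLFTest, filterByExpr, TMM, Benjamini-Hochberg). A call required an adjusted p below 0.05 and, between classes, an absolute log2 fold change above 1. Classes were fitted with the arm as a block. DESeq2 1.42.0 was an alternative. Intervals are exact Poisson, conditional binomial or Clopper-Pearson at 95% and cover counting error only. Fits were first tested on simulated counts with 200 genes changed: monocyte/macrophage against T recovered 85.6% of changes of 1 log2 unit with 2 false calls, C1qb against Ly6c2 89.5% with 0.

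All 7 members are named and, for members with at least 200 UMIs, the 3 most alike genes. The rest of the family, 7 partner genes and neighbours within 200 kb were also examined, and not all of these are named. Members, gates and lists were chosen with earlier results of these data known.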

Additional observations from a re-analysis of the deposited data

Results flagged for a closer look

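Among 41 groups of 4 arms, 2 had an arm set apart by Dixon's criterion, which chance does in about 1 group in 20. Ms4a6b in the C1qb class of the short cohort was at 306.6 CPM in the anti-MIF arm, against 159 to 180.2 in the others. Ms4a6d in the Ly6c2 class of the short cohort was at 294.1 CPM in the isotype arm, against 403 to 424.

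Cells of the fifth hashtag, which no label describes and no comparison used, lay above the isotype arm for several members (ratio with its 95% counting interval, 1 sample each). In monocyte/macrophage cells Ms4a4c was 1.71 times isotype in the long (1.56 to 1.89) and 1.43 times in the short cohort (1.33 to 1.52). Ms4a6d was 1.78 (1.59 to 1.99) and 1.39 (1.29 to 1.51). Ms4a6b was 1.33 (1.18 to 1.51) and 1.32 (1.22 to 1.43). In the long cohort alone Ms4a4b was 1.82 (1.04 to 3.40) and Ms4a6c 1.2 (1.10 to 1.31). In T cells of the short cohort Ms4a4b was 2.40 (1.84 to 3.15) and Ms4a6b 2.28 (1.45 to 3.67). Only ratios whose interval lay above 1 are listed. For each short-cohort ratio given here, the isotype arm was also the lowest of the labelled arms, so the treated arms lay above it too.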

How the results depend on the processing

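Which members were called did not change in number when any single arm was left out, and no direction of a called member was reversed by any alternative run. The counts of all genes moved more. Without a filter on low counts, monocyte/macrophage against T had 4880 calls (2688 as reported) and C1qb against Ly6c2 1258 (588), the interaction had 248 in monocyte/macrophage (12) and 43 in T cells (4), anti-MIF 10 and 21 and anti–PD-1 2 and 20 (0 as reported). With cells thinned to 2000 UMIs the calls were 1529, mature DC 1573 (2783), NK 197 (505), C1qb 224, cohort 227 (774) and 127 (463), anti-MIF in T cells 2, anti–PD-1 in T cells 1 and the interaction in T cells 0. DESeq2 gave 14 and 1 for anti-MIF, 1 for anti–PD-1 in monocyte/macrophage cells, 52 and 0 for the interaction and 194 for cohort in T cells. With cells of several gates kept, anti–PD-1 had 1 call in either gate, the interaction in T cells 0, and NK against T 2 members, Ms4a6d (−2.08) with Ms4a6b. With at least 2 UMIs of each gate gene the interaction had 5 and 0 calls, with no upper limit on genes 19 in monocyte/macrophage cells, and at a stricter hashtag quantile anti-MIF had 1. Chosen after seeing the data, the Ly6c2 class alone gave 1 call for anti-MIF, and the C1qb class alone 1 for anti–PD-1 and 10 for cohort.

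Leaving out each arm gave 511 to 631 calls for C1qb against Ly6c2, 335 to 537 for NK against T (335 without the short anti–PD-1 arm), 2367 to 2954 for mature DC and 2529 to 3071 for monocyte/macrophage against T. It gave 0 to 1 and 0 to 5 for anti-MIF, 0 to 2 and 0 to 4 for anti–PD-1, 0 to 145 and 0 to 19 for the interaction (145 and 14 without the long combination arm, 0 and 0 without the short anti-MIF arm) and 37 to 1212 and 215 to 425 for cohort (37 without the long anti–PD-1 arm, 1212 without the long isotype arm), in monocyte/macrophage and T cells.

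Ms4a4b in NK against T changed sign, to 0.20 (stricter hashtag quantile), 0.00 (10% mitochondrial UMIs), 0.36 (cells of several gates kept), 0.09 (DESeq2), 0.07 (DESeq2 size factors) and −0.20 to 0.20 without single arms. Ms4a7 in NK against T, at 2 UMIs and 0, was 0.50 with DESeq2. Ms4a7 with anti-MIF was −0.87 in the C1qb class alone and −0.21 to 1.02 without single arms. Short of a call were Ms4a7 between the classes in the long cohort alone (3.93) and Ms4a4b in the short cohort alone (−1.39). With cells of several gates kept, the B level of Ms4a1 was 341 CPM and of Ms4a4c 359. The causes were not tested. B against T, the T classes, and the short cohort alone for most lineage comparisons gave no value, with too few sums. Comparisons of classes were paired within arms by the arm block in every fit, and the arms carry no replicate numbers by which they could be paired with each other. Few cells limit the B gate (43), the Cd4 class (41) and the Foxp3 class (35).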

Other observations

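The fifth hashtag carried the lowest Ms4a7 of each cohort, at 53.8 CPM of monocyte/macrophage cells in the long and 26.7 in the short cohort. C1qb-only cells made 3.06 and 7.55% of that gate. Its Ms4a4c was 1137 CPM in the long cohort, above the 4 labelled arms, and 536 in the short, within their range. Ms4a4b in its T cells was 1198 CPM in the long and 1286 in the short cohort, above the labelled arms of the same cohort.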
